A study of Sus scrofa with 9 samples.

Results

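The genes described are 45 members of the autophagy and lysosome machinery of the pig (Sus scrofa), chosen by symbol from 23507 genes in a count table of mature oocytes. The rule took symbols that begin with MAP1LC3, GABARAP or WIPI, with CTS and 1 letter, or with LAMP, ULK or ATG and a digit, and added BECN1 and SQSTM1. No measured value entered the rule. The oocytes were wild type by their label, were cultured from the germinal vesicle stage inside compact cumulus cell layers, and were collected at metaphase II (MII), the arrested stage of the mature egg. The sources used here name neither strain nor age of the animals. The heat stress plus L-Asp group was cultured at 41.5 °C for 24 h with L-Asp and then at 38.5 °C until MII. In the standard amino acid code L-Asp is L-aspartic acid, and of the concentrations given (0.5, 1.0 and 1.5 mmol/L) the labels do not tie any to the sequenced oocytes. Libraries of this group are referred to as L-Asp. The heat stress group had the same heat without L-Asp, and the control group stayed at 38.5 °C. MII is given as 44 to 48 h of culture, and all groups shared a medium with follicular fluid, hormones and growth factor. Each group had 3 libraries of polyadenylated RNA and 25 oocytes by the labels, which do not say how the oocytes were divided among the libraries. Cumulus cells were part of the culture, and the labels do not say whether they were removed before lysis. In such bulk samples, fewer cells of a type and less RNA per cell cannot be told apart.

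Autophagy wraps a part of the cytoplasm in a double membrane and delivers it to the lysosome, where acid hydrolases break it down. A kinase complex around ULK1 and a lipid kinase complex around BECN1 start the membrane, ATG9A, ATG2 and WIPI proteins enlarge it, and a pair of ubiquitin-like conjugation reactions attach proteins of the LC3 and GABARAP families to its lipids. Receptors such as SQSTM1 tie cargo to those proteins, and cathepsins and LAMP proteins belong to the lysosome that receives it. In mouse oocytes, autophagy is known for its part in the turnover of maternal material after fertilisation. RNA levels do not measure autophagic flux, since LC3 and SQSTM1 proteins are themselves consumed in the process.

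Total counts per library were 41693395 to 49008681 with L-Asp, 46198885 to 53327419 after heat stress and 54965064 to 58361475 in control. The mitochondrial genome gave 5.30% to 9.47% of counts with L-Asp, 3.09% to 14.5% after heat stress and 10.0% to 10.1% in control. Control libraries differed among themselves hardly beyond fragment sampling, with a median index of dispersion (squared difference between 2 libraries over that of independent counts) of 5.19 to 5.22, against 79.4 to 84.9 between L-Asp libraries and 109 to 119 between heat stress libraries. Counts in this table come in steps near 4, so that an index near 4 is what the sampling of fragments alone would give. The control libraries were averaged and entered each test as 1 library, so that 7 libraries were fitted and the control was assumed to vary like the other groups. The labels do not say whether the libraries of 1 group are separate cultures or animals. The p-values therefore describe the spread between these libraries, which may be technical. Oocyte markers (14 of 16 listed symbols in the table, all 14 tested) summed to 23450 to 27260 CPM (depth-scaled counts, with factors from the trimmed mean of M values) with L-Asp, 18660 to 23230 CPM after heat stress and 35560 to 35890 CPM in control. The tested markers did not go one way: 4 of 14 had a log2 fold change above 0 for heat stress against control, 10 for L-Asp against heat stress and 5 for L-Asp against control, and none passed (edgeR). BTG4 alone averaged 7384 CPM with L-Asp, 7322 CPM after heat stress and 15800 CPM in control, and so carried much of the sum. ZP4 lay the other way at 1653 CPM with L-Asp, 1142 CPM after heat stress and 706 CPM in control, and so did ZP3 and OOEP. None of the 14 was at 0 in control.

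All 45 members are annotated as protein coding, and they lie on 16 chromosomes, 9 of them on chromosome 2. The table's own terms place 32 members in the KEGG autophagy pathways and 14 in the KEGG lysosome pathway, and 44 carry an autophagy or lysosome term of KEGG or gene ontology. The exception was ULK4, a kinase relative that is not an established autophagy factor. The 2 cathepsin genes CTSK (chromosome 4, 98391428 to 98404961) and CTSS (chromosome 4, 98417883 to 98442950) are neighbours, 12922 bases apart. No genome build for the coordinates is named in the sources used here. In the table, 11 members overlap another gene, 10 of them a gene on the opposite strand, and these libraries do not mark the strand. CTSB, a cysteine protease, averaged 3.51 ± 2.15 CPM with L-Asp, 1.72 ± 1.65 CPM after heat stress (SD, n = 3 each, here and below) and 5.37 CPM in control. FDFT1, which overlaps it on the other strand, averaged 1439 CPM with L-Asp, 1212 CPM after heat stress and 1953 CPM in control, and reads of the pair cannot be told apart where they overlap. For SQSTM1 the overlapping gene averaged 9.78 CPM with L-Asp, 6.68 CPM after heat stress and 18.7 CPM in control, far below SQSTM1 itself.

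By the mean of the 3 groups in FPKM (fragments scaled for transcript length and library depth, as deposited, which allows levels of genes to be compared), 2 members lay above 100 FPKM, 12 between 10 and 100, 15 between 1 and 10 and 16 at 1 FPKM or less. The highest was ATG4A, a cysteine protease that trims LC3 and GABARAP proteins and frees them from lipid. ATG4A measured 148 to 169 FPKM with L-Asp, 102 to 156 FPKM after heat stress and 133 to 136 FPKM in control, and 353 genes of the table lay above its mean of 139 FPKM. SQSTM1, the receptor for ubiquitinated cargo, measured 146 to 188 FPKM with L-Asp, 109 to 138 FPKM after heat stress and 104 to 111 FPKM in control. Ranges of ATG4A and SQSTM1 over the 9 libraries overlapped (102 to 169 and 104 to 188 FPKM), and ATG4A was the higher of the pair in 6 of 9. A gap followed, because the next gene, GABARAPL2, reached at most 43.7 FPKM in any library. From GABARAPL2 down to ATG5, the twelfth member, the range of each gene over the 9 libraries overlapped that of its neighbour in the order. Within single libraries GABARAPL2 lay above ATG2B in 9 of 9 and MAP1LC3B above GABARAP in 8 of 9. The other neighbours changed order in more libraries.

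Within several families, as counted by the symbols of the naming rule, 1 gene carried most of the RNA. ATG4A made up 91.8% to 97.8% of the summed FPKM of the 4 ATG4 genes in every library, and ATG4B, the main LC3 protease of human cells, at most 4.88%. ATG2B, a lipid transfer protein, made up at least 99.7% of the ATG2 pair, WIPI2 at least 98.7% of the WIPI pair and ATG16L1 at least 99.3% of the ATG16L pair in every library. The WIPI pair leaves out WDR45B, a WIPI relative outside the naming rule. WDR45B averaged 16.45 FPKM with L-Asp, 11.5 FPKM after heat stress and 16.63 FPKM in control. WIPI2 averaged 26.95, 20.76 and 13.88 FPKM in the same order, so it was not the main gene of this wider family in control. GABARAPL2 held 40.8% to 60.0% of the 6 LC3 and GABARAP genes, and MAP1LC3B held 22.6% to 33.1%. ULK4 and ULK2 held 42.6% to 58.5% and 29.3% to 43.5% of the 4 ULK genes, whereas ULK1, the kinase that starts autophagy, held 3.81% to 16.9%. CTSK, a collagen-degrading protease best known from osteoclasts, made up 44.0% to 78.4% of the FPKM of 12 cathepsins. By contrast CTSD and CTSB, which are major lysosomal proteases of most tissues, averaged 0.103 and 0.588 FPKM over the groups, and LAMP1 and LAMP2, the abundant glycoproteins of the lysosomal membrane, averaged 2.66 and 1.97 FPKM.

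**Figure D1:**
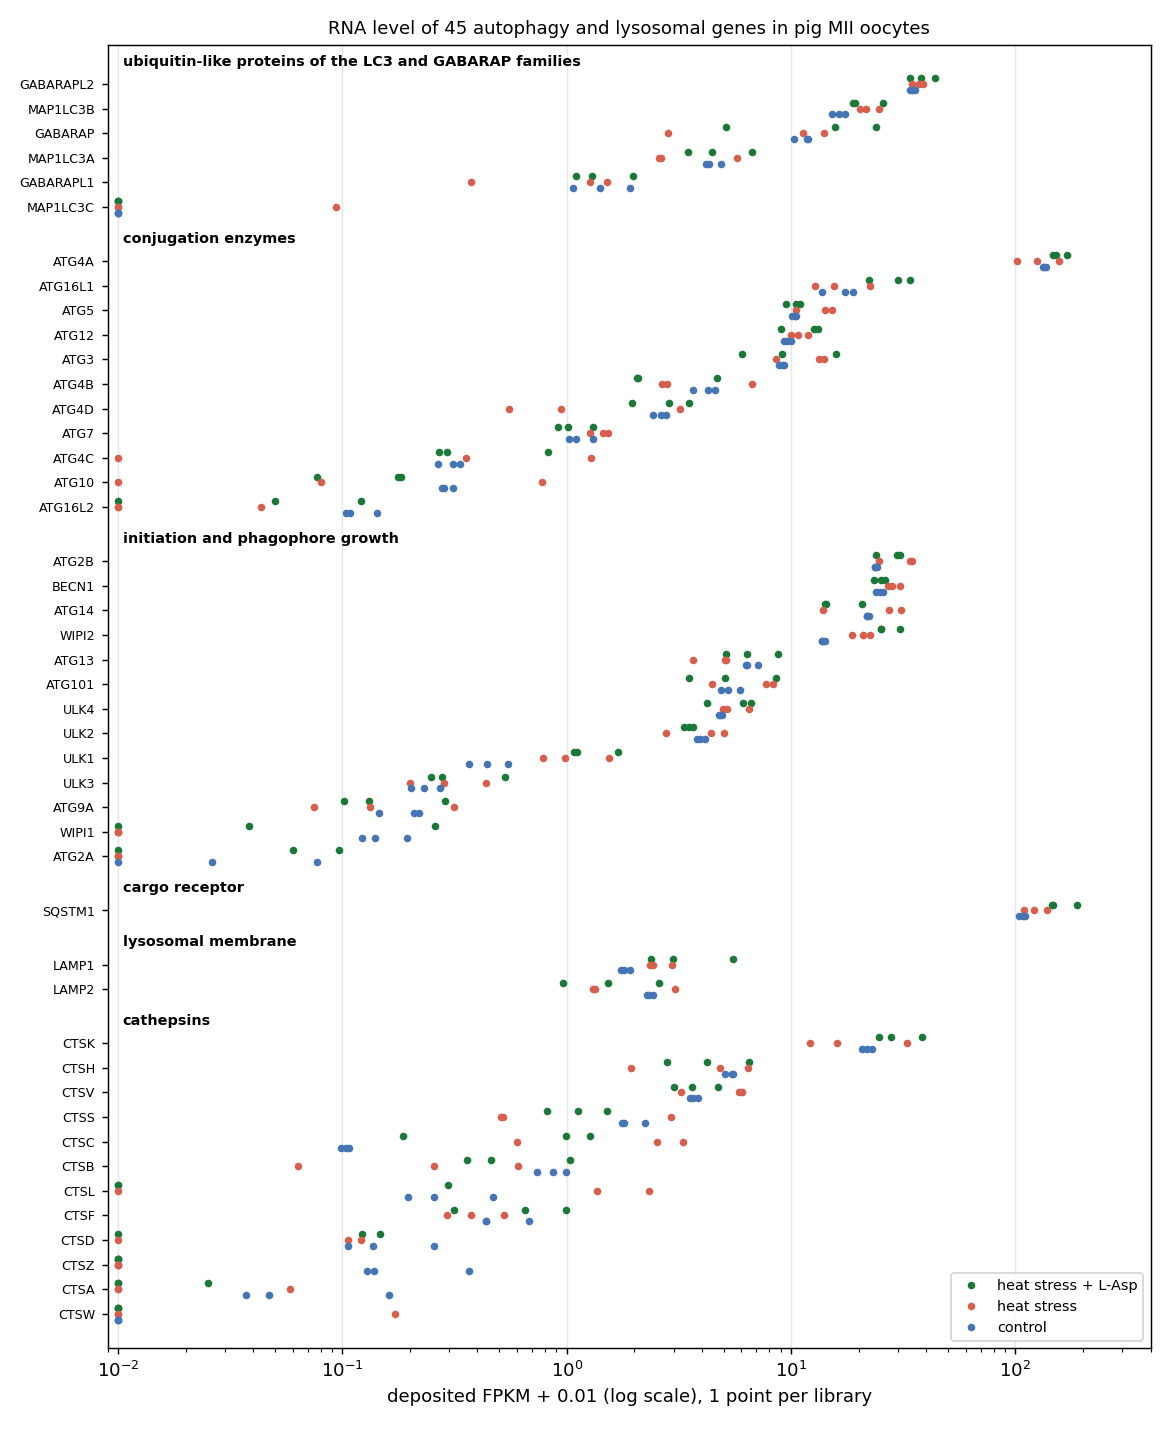
Deposited FPKM plus 0.01 (log scale) of each of the 45 members in every library, grouped by role and sorted by level, with L-Asp in green, heat stress in red and control in blue. ATG4A and SQSTM1 lie above 100 FPKM in all libraries, and points at the left edge are libraries in which the gene is listed at 0.

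Of the 45 members, 42 passed the filter on low counts and were tested among 15012 genes. The other 3, MAP1LC3C, CTSA and CTSW, reached at most 0.443 CPM in any library. No member passed edgeR's quasi-likelihood test at an adjusted p (Benjamini-Hochberg over all genes) under 0.05 in any of the 3 comparisons, and neither did any other gene (0 of 15012 called, 0.0%, in each). The smallest adjusted p among members was 0.749 for heat stress against control, 0.738 for L-Asp against heat stress and 1.0 for L-Asp against control. At an unadjusted p under 0.05, the first comparison had CTSC higher and WIPI1 lower (1 of 42 each way, beside 1.96% and 1.9% of all genes, 3.86% together). The second had ATG16L1 and WIPI1 higher and none lower (2 and 0 of 42, beside 3.52% and 3.1%, 6.61% together). The third had WIPI2 and CTSC higher and none lower (2 and 0 of 42, beside 1.63% and 1.6%, 3.22% together). DESeq2 on the same libraries called 1 member, CTSC, after heat stress against control (1.01% of the genes to which it gave an adjusted p) and 0 in the other comparisons (1.1% and 0.386%), where edgeR's unadjusted counts are those just given. With the control libraries as 3 replicates, edgeR called CTSC in the first comparison (2.88% of all genes), no member in the second (0.0133%) and WIPI2 in the third (1.79%).

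Directions were close to even. Heat stress against control gave a log2 fold change above 0 for 18 of 42 members (50.1% of all genes), with a median of -0.13 beside 0.00 over all genes. L-Asp against heat stress gave 24 of 42 (49.0%), with a median of 0.08 beside -0.01. L-Asp against control gave 20 of 42 (50.5%), with a median of -0.03 beside 0.01. Setting members at 0 in a whole group to the bound that 12 counts per library allow moved these medians to -0.12, 0.09 and -0.03. Without heat stress replicate 1 the first of them was -0.02, with 21 of 42 above 0. The mean and the median had the same sign in each comparison. A log2 fold change over 1 in size was found for 3 members higher and 6 lower after heat stress against control (12.9% and 12.3% of all genes), 4 higher and 3 lower with L-Asp against heat stress (11.4% each) and 2 higher and 5 lower with L-Asp against control (12.0% and 11.2%). Many of these members held hardly any RNA. All of the lower ones after heat stress except CTSB (WIPI1, CTSZ, ATG2A, ATG16L2 and CTSD) averaged under 1 CPM in each group. So did WIPI1, ATG2A and ATG16L2 among those higher with L-Asp against heat stress. The same held for ATG16L2, CTSD and CTSZ among those lower with L-Asp against control. The comparisons share their heat stress or control libraries, so their counts are not independent of each other.

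Members whose libraries did not overlap between groups were about as frequent as among all genes or less. Between heat stress and control there were 10 of 42 (23.8%, beside 32.7% of all genes). MAP1LC3B, ULK1, WIPI2, LAMP1 and CTSC were the 5 higher (13.6% of all genes), and ATG13, ATG16L2, WIPI1, CTSB and CTSZ the 5 lower (19.0%). Between L-Asp and heat stress there were 4 of 42 (9.52%, beside 11.9%), with ATG16L1, WIPI2 and SQSTM1 higher (6.31%) and BECN1 lower (5.54%). Between L-Asp and control there were 14 of 42 (33.3%, beside 33.8%). The 8 higher members were MAP1LC3B, ATG16L1, ULK1, WIPI2, SQSTM1, LAMP1, CTSC and CTSK (14.2% of all genes), and the 6 lower were ATG5, ATG10, ATG14, ULK2, CTSS and CTSZ (19.6%). Within groups the members varied about as much as other genes, with a median coefficient of variation of 32.4% with L-Asp and 34.6% after heat stress (36.1% and 41.0% over all genes), and of 6.86% across the control libraries (10.1%).

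**Figure D2:**
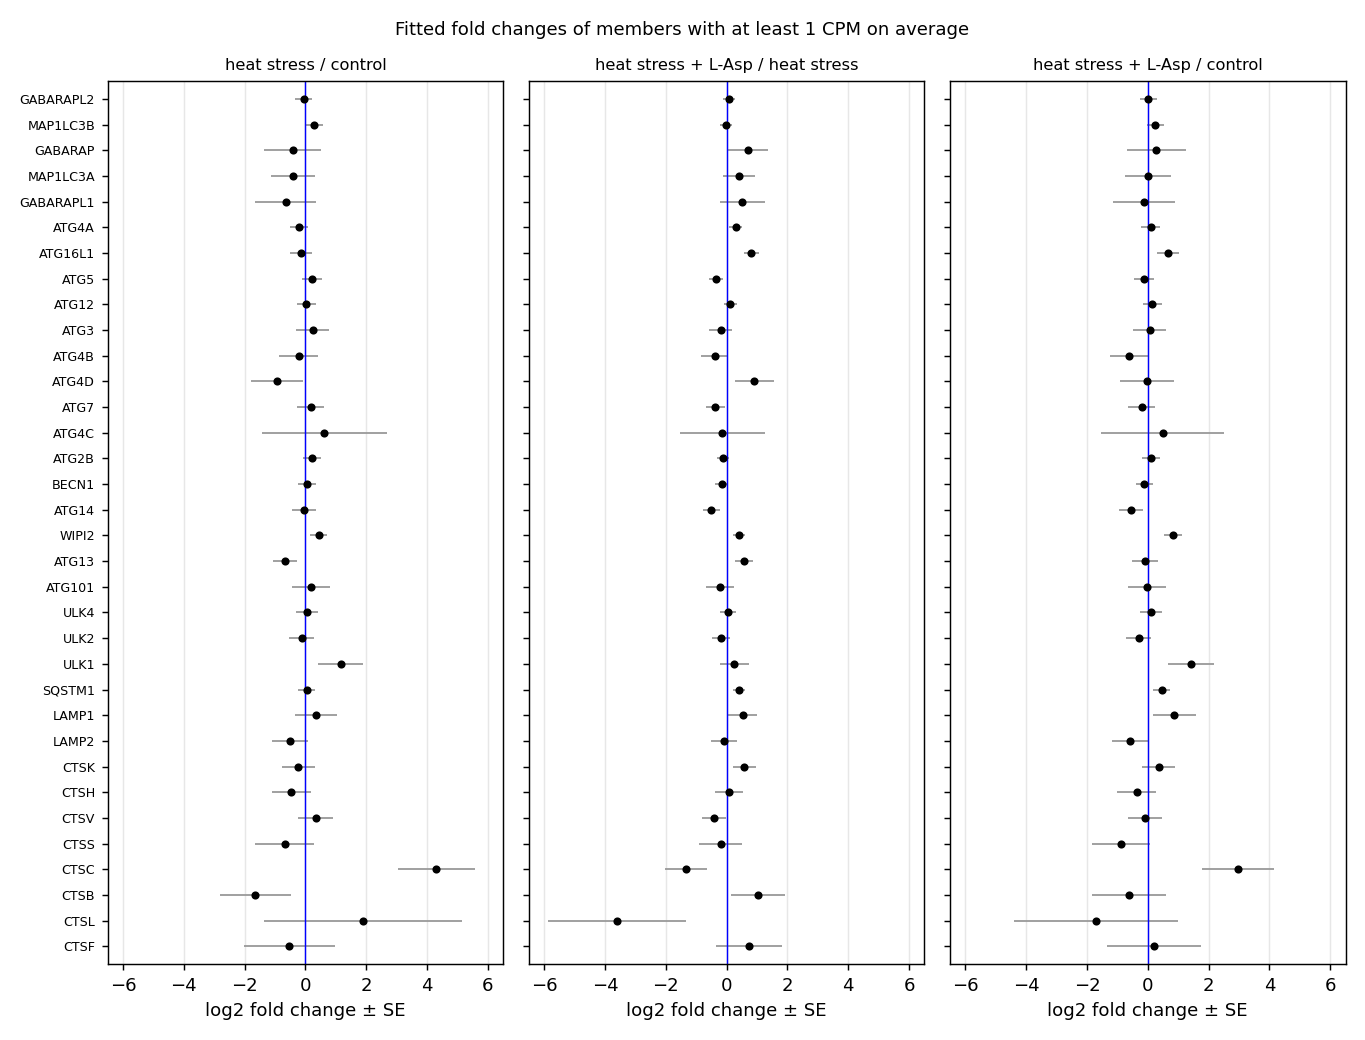
Fitted log2 fold change with its SE (edgeR, 7 libraries) of the 34 tested members that averaged at least 1 CPM over the groups, with 1 panel for each of the 3 comparisons. Points lie on both sides of 0 in each panel, and CTSC is the farthest from 0 in both panels against control.

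LC3 and GABARAP proteins coat the growing membrane and bind cargo receptors, and none of their 5 tested genes passed in any comparison. Of the 5, 1 had a log2 fold change above 0 for heat stress against control, 4 for L-Asp against heat stress and 4 for L-Asp against control (medians -0.42, 0.42 and 0.02). GABARAPL2 measured 324, 282 and 256 CPM with L-Asp, 282, 234 and 301 CPM after heat stress and 282, 277 and 290.5 CPM in control, and the groups overlapped. Its log2 fold change was -0.06 ± 0.28 (SE) for heat stress against control and 0.08 ± 0.20 (SE) for L-Asp against heat stress. MAP1LC3B, whose protein is the usual marker of autophagosomes, measured 137, 184 and 136 CPM with L-Asp, 157, 160.3 and 150.2 CPM after heat stress and 128, 120.0 and 136 CPM in control. Both heated groups lay above control for this gene, though the lowest L-Asp library (136.4 CPM) hardly differed from the highest control library (136.1 CPM), with log2 fold changes of 0.28 ± 0.29 (SE) after heat stress and 0.25 ± 0.29 (SE) with L-Asp against control, neither of which passed (edgeR, adjusted p = 1.0 each). The other genes of the family were low and variable. GABARAP, a relative of LC3 that acts later in the closing of the membrane, measured 3.08, 9.48 and 14.6 CPM with L-Asp, 1.74, 6.18 and 8.77 CPM after heat stress and 7.75, 6.77 and 7.85 CPM in control, so replicate 1 of each heated group was the lowest of its group. MAP1LC3A measured 5.21, 10.0 and 6.80 CPM with L-Asp, 3.93, 3.58 and 8.93 CPM after heat stress and 8.06, 7.11 and 6.83 CPM in control, with overlap of all groups. It overlaps PIGU on the opposite strand, which averaged 90.5 CPM with L-Asp, 59.5 CPM after heat stress and 63.4 CPM in control, more than MAP1LC3A itself. GABARAPL1 measured 2.92, 2.49 and 4.52 CPM with L-Asp, 3.46, 2.57 and 0.875 CPM after heat stress and 3.48, 4.71 and 2.62 CPM in control, again with overlap. MAP1LC3C was listed at 0 in 8 of the 9 libraries and at 0.117 CPM in heat stress replicate 3.

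Among the conjugation genes, ATG16L1 was the 1 member whose heated groups did not overlap. This scaffold fixes the place where LC3 is joined to lipid. ATG16L1 measured 97.5, 132 and 151 CPM with L-Asp, 56.7, 88.7 and 70.3 CPM after heat stress and 90.4, 83.1 and 65.4 CPM in control. All L-Asp libraries lay above all libraries of the other groups, and heat stress overlapped control. The log2 fold change of L-Asp against heat stress was 0.82 ± 0.25 (SE), with an unadjusted p of 0.00732 and an adjusted p of 0.738 (edgeR), the smallest p of any member in that comparison. Leaving out any 1 library gave 0.67 to 1.00. Control libraries of ATG16L1 spanned 65.4 to 90.4 CPM, wider in proportion than those of any other member above 50 CPM.

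ATG4A measured 391, 343 and 356 CPM with L-Asp, 241, 263 and 376 CPM after heat stress and 337, 347 and 339 CPM in control. Heat stress replicates 1 and 2 were the lowest of the 9 libraries, while heat stress replicate 3 lay above all of control. Its log2 fold change was -0.22 ± 0.30 (SE) for heat stress against control and 0.31 ± 0.21 (SE) for L-Asp against heat stress. ATG5 and ATG12, the protein and its ubiquitin-like partner that form the conjugate bound by ATG16L1, measured 102 ± 6.77 and 92.2 ± 17.4 CPM with L-Asp, 130.3 ± 32.6 and 84.9 ± 3.76 CPM after heat stress (SD, n = 3 each), and 111 and 83.5 CPM in control. For ATG12 these values include a possible share of an unnamed gene that overlaps on the other strand at 138 to 147 CPM. The activating enzyme ATG7 measured 16.4 ± 3.12 CPM with L-Asp, 21.4 ± 3.48 CPM after heat stress and 18.9 CPM in control. ATG7 overlaps VGLL4 on the opposite strand, which averaged 29.4 CPM with L-Asp, 18.0 CPM after heat stress and 24.3 CPM in control. The E2-like enzyme ATG3 measured 20.3 ± 9.65 CPM with L-Asp, 23.1 ± 5.26 CPM after heat stress and 19.4 CPM in control. The other proteases of the ATG4 family, ATG4B, ATG4C and ATG4D, ranged from 0 to 24.3 CPM over all libraries. ATG10, the E2-like enzyme for ATG12, lay at 3.12 CPM in heat stress replicate 1 and at 0 to 1.34 CPM elsewhere. ATG16L2, a close relative of ATG16L1, reached at most 0.587 CPM, in control replicate 1. Of the 11 conjugation genes, 5 had a log2 fold change above 0 and 6 below in each of the 3 comparisons, and none passed.

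In the complexes that start and enlarge the membrane, WIPI2 was the member whose levels were ordered by group. WIPI2 binds phosphatidylinositol 3-phosphate on the young membrane and, in human and mouse cells, recruits ATG16L1. It measured 175, 176 and 217 CPM with L-Asp, 133, 133 and 164 CPM after heat stress and 106, 105 and 108 CPM in control, and no pair of the 3 groups overlapped. The log2 fold change was 0.83 ± 0.30 (SE) for L-Asp against control, 0.40 ± 0.20 (SE) for L-Asp against heat stress and 0.43 ± 0.29 (SE) for heat stress against control. In the first of these the unadjusted p was 0.0176, the smallest of any member in that comparison, and the adjusted p was 1.0 (edgeR). With the control libraries as 3 replicates, a fit that takes their small differences as the spread between control samples, WIPI2 passed for L-Asp against control (edgeR, adjusted p = 0.0216, and 0.0247 with a replicate block). It was the 1 member called there, where that fit called 1.79% of all genes. The gene lies on chromosome 3, 3800186 to 3834413.

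ULK1, the kinase at the head of the pathway, measured 6.33, 6.59 and 10.1 CPM with L-Asp, 9.28, 5.22 and 4.79 CPM after heat stress and 3.52, 2.33 and 2.81 CPM in control. Every heated library lay above every control library, with log2 fold changes of 1.42 ± 0.75 (SE) with L-Asp and 1.16 ± 0.74 (SE) after heat stress against control, which did not pass (edgeR, adjusted p = 1.0 each). ULK2, its closest relative, measured 21.5 ± 1.01 CPM with L-Asp, 24.4 ± 6.15 CPM after heat stress (SD, n = 3 each) and 26.5 CPM in control, with every L-Asp library below control and heat stress on both sides of it. ATG13, which holds the ULK1 complex together, measured 26.0, 32.1 and 44.7 CPM with L-Asp, 18.8, 23.4 and 26.8 CPM after heat stress and 35.0, 39.6 and 35.3 CPM in control. Heat stress lay wholly below control, at a log2 fold change of -0.67 ± 0.41 (SE), and L-Asp overlapped both. The log2 fold change of ATG13 for L-Asp against heat stress was 0.58 ± 0.30 (SE). ATG101, the partner of ATG13, averaged 8.90 ± 4.10 CPM with L-Asp, 10.3 ± 2.79 CPM after heat stress and 9.09 CPM in control. ULK3 and ULK4, relatives with other known roles, averaged 1.08 ± 0.484 and 64.0 ± 13.8 CPM with L-Asp, 0.903 ± 0.300 and 61.7 ± 12.3 CPM after heat stress, and 0.780 and 59.7 CPM in control.

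BECN1, a scaffold subunit of the lipid kinase complex, had the narrowest spread of the abundant members. It measured 68.5, 77.4 and 75.1 CPM with L-Asp, 83.7, 81.1 and 82.6 CPM after heat stress and 77.0, 80.1 and 81.8 CPM in control. Every L-Asp library lay below every heat stress library, by a log2 fold change of -0.16 ± 0.20 (SE), and both groups overlapped control. ATG14, which directs BECN1 to autophagy, measured 121, 83.1 and 85.3 CPM with L-Asp, 164, 164 and 84.7 CPM after heat stress and 139.6, 143 and 139.8 CPM in control. All L-Asp libraries lay below control, and heat stress replicate 3 lay inside the L-Asp range while replicates 1 and 2 lay above control. The log2 fold change of ATG14 was -0.51 ± 0.28 (SE) for L-Asp against heat stress and -0.55 ± 0.39 (SE) against control. ATG2B measured 278, 225 and 293 CPM with L-Asp, 333, 288 and 240.4 CPM after heat stress and 244, 248 and 243 CPM in control, with overlap of all groups.

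Other genes of these complexes held little RNA, and WIPI1 and ATG2A were listed at 0 in some libraries. WIPI1 was listed at 0 in all heat stress libraries, at 1.36, 0.162 and 0 CPM with L-Asp and at 1.09, 0.782 and 0.674 CPM in control. Against the level of 12 counts in a library, taken as 3 fragments of 4 counts each, its control mean gave a bound of 3.45-fold lower after heat stress. Such a bound covers counting error only and not the spread between libraries. WIPI1 itself differed widely among the L-Asp libraries. Its unadjusted p was 0.0406 for heat stress against control and 0.0415 for L-Asp against heat stress, and neither passed (edgeR, adjusted p = 1.0 and 0.738). ATG2A was at 0 in heat stress, at 0.608, 0 and 0.379 CPM with L-Asp and at 0, 0.515 and 0.135 CPM in control, and its control mean did not exceed that level of 12 counts. ATG9A, the membrane protein that seeds the autophagosome, averaged 0.786 ± 0.473 CPM with L-Asp, 0.785 ± 0.610 CPM after heat stress and 0.956 CPM in control.

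SQSTM1 had the highest mean CPM of all members in the L-Asp group. It measured 353, 357 and 463 CPM with L-Asp, 269, 303 and 305 CPM after heat stress and 287, 276 and 293 CPM in control. All L-Asp libraries lay above all others, and heat stress overlapped control. L-Asp replicate 3 was the highest of the 9. The log2 fold change was 0.42 ± 0.19 (SE) for L-Asp against heat stress (edgeR, unadjusted p = 0.0541, adjusted p = 0.738), 0.46 ± 0.28 (SE) for L-Asp against control and 0.04 ± 0.27 (SE) for heat stress against control. Without L-Asp replicate 3 the first of these was 0.28. The gene lies on chromosome 2, 78752771 to 78763938.

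**Figure D3:**
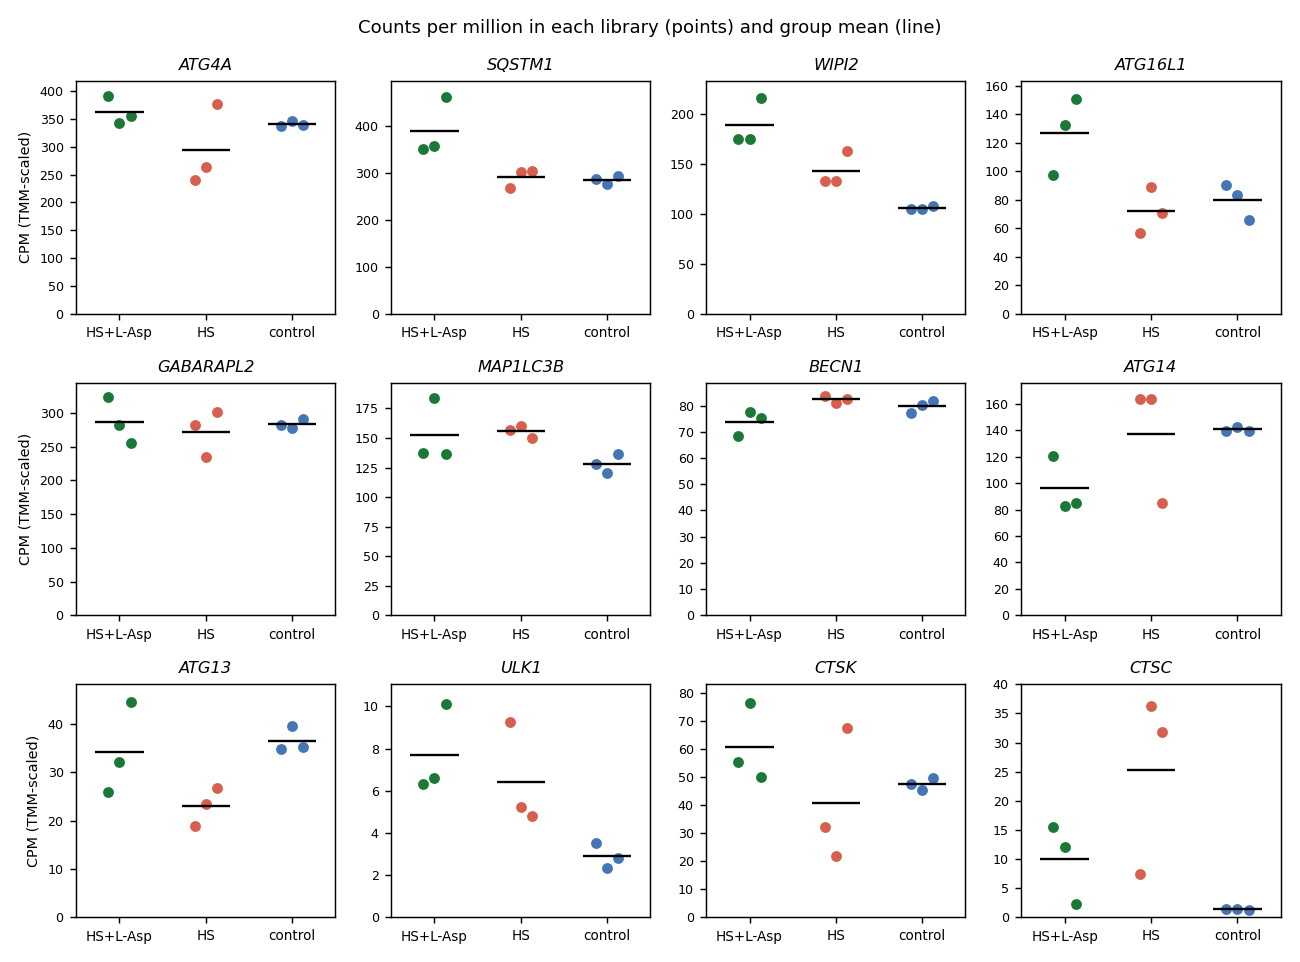
CPM, scaled by trimmed mean of M values, of 12 members in each library (points) with the group mean (line), and with the L-Asp, heat stress and control groups placed left to right. SQSTM1 and ATG16L1 lie higher in all L-Asp libraries than in any other, WIPI2 shows 3 groups without overlap, and CTSC spreads widely within both heated groups.

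The lysosomal membrane genes were expressed at low level. LAMP1 measured 5.70, 7.11 and 13.3 CPM with L-Asp, 5.73, 6.37 and 6.03 CPM after heat stress and 5.00, 4.71 and 4.56 CPM in control. Both heated groups lay above control, with log2 fold changes of 0.87 ± 0.70 (SE) with L-Asp and 0.34 ± 0.68 (SE) after heat stress (edgeR, adjusted p = 1.0 each). Without L-Asp replicate 3 the first of these was 0.43. LAMP2, which is needed for the fusion of autophagosomes with lysosomes in mouse, measured 15.8, 10.0 and 27.4 CPM with L-Asp, 14.1, 28.6 and 14.1 CPM after heat stress and 27.8, 26.5 and 25.9 CPM in control. Heat stress replicate 2 and L-Asp replicate 3 lay near control and the other 4 heated libraries below it.

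CTSC had the largest difference from control of any cathepsin outside the genes at 0. It encodes a dipeptidyl peptidase that activates serine proteases of immune cells (chromosome 9, 21726997 to 21761516). CTSC measured 15.4, 12.0 and 2.23 CPM with L-Asp, 7.33, 36.4 and 31.9 CPM after heat stress and 1.32, 1.28 and 1.21 CPM in control. All heated libraries lay above control, and the heated groups overlapped each other and spread widely, with heat stress replicate 1 and L-Asp replicate 3 as the lowest of their groups. The log2 fold change was 4.31 ± 1.28 (SE) for heat stress against control (edgeR, unadjusted p = 0.00614, adjusted p = 0.749), 2.96 ± 1.18 (SE) for L-Asp against control (adjusted p = 1.0) and -1.35 ± 0.69 (SE) for L-Asp against heat stress (adjusted p = 0.738). Heat stress against control passed by DESeq2 (adjusted p = 0.00343) and with the control libraries as 3 replicates (edgeR, adjusted p = 0.0124, and 0.0172 with a replicate block), where 2.88% of all genes passed and CTSC was the 1 member.

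Somatic cells that surround the oocyte express their own set of markers, and most of the tested cumulus and granulosa markers had a fold change above 0 in the heated groups. The table held 25 such markers, of which 18 were tested. For heat stress against control 14 of the 18 had a log2 fold change above 0 (median 0.84), beside 50.1% of all genes. The count was 13 for L-Asp against control (median 0.39, beside 50.5%) and 5 for L-Asp against heat stress (median -0.29, beside 49.0%). The 4 below 0 for heat stress against control were CYP19A1 (-0.14), GATA4 (-0.28), PTGS2 (-0.18) and GREM1 (-0.08). None of the 18 passed in any comparison (edgeR). The steroid-producing enzyme CYP11A1 measured 1.32, 7.80 and 0.687 CPM with L-Asp, 5.98, 6.37 and 15.1 CPM after heat stress and 0, 0 and 0.116 CPM in control. The gap junction gene GJA1 measured 5.03, 1.60 and 7.03 CPM with L-Asp, 6.97, 7.15 and 13.4 CPM after heat stress and 0.668, 0.191 and 1.56 CPM in control. The inhibin subunit INHA reached 6.41 CPM in L-Asp replicate 2 and at most 0.856 CPM elsewhere. The summed marker level was 1302 to 1342 CPM with L-Asp, 1332 to 1684 CPM after heat stress and 1268 to 1308 CPM in control, most of it from RGS2 and VCAN. In control 7 of the 25 markers were at 0 (LHCGR, INHBA, INHBB, AMH, GATA6, PTX3 and HSD17B1), and PTX3 was at 0 in every library. The blood and immune list (8 genes in the table, 3 tested) summed to 2.88 to 5.61 CPM with L-Asp, 2.76 to 8.79 CPM after heat stress and 7.46 to 10.2 CPM in control. PTPRC, the pan-leukocyte marker of that list, measured 0.568, 1.96 and 0.426 CPM with L-Asp, 0.466, 5.10 and 0.117 CPM after heat stress and 0.810, 0.725 and 0.847 CPM in control. It was highest in heat stress replicate 2, as was CTSC, and low in heat stress replicate 3, where CTSC reached 31.9 CPM. Of the 3 tested genes of that list, only PTPRC had a log2 fold change above 0 for heat stress against control. ITGAM lay the other way, at a mean of 2.495 CPM with L-Asp, 2.52 CPM after heat stress and 7.47 CPM in control. CSF1R had a log2 fold change of -0.32 ± 3.06 (SE) for heat stress against control. The part of blood cells, and that of cumulus cells, in the CTSC difference was not tested. The theca and stroma list (9 in the table) summed to 11.1 to 16.8 CPM with L-Asp, 11.9 to 13.8 CPM after heat stress and 16.3 to 18.6 CPM in control. The endothelial list (4 in the table) summed to 26.0 to 42.6 CPM with L-Asp, 23.6 to 40.7 CPM after heat stress and 31.5 to 37.9 CPM in control.

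**Figure D4:**
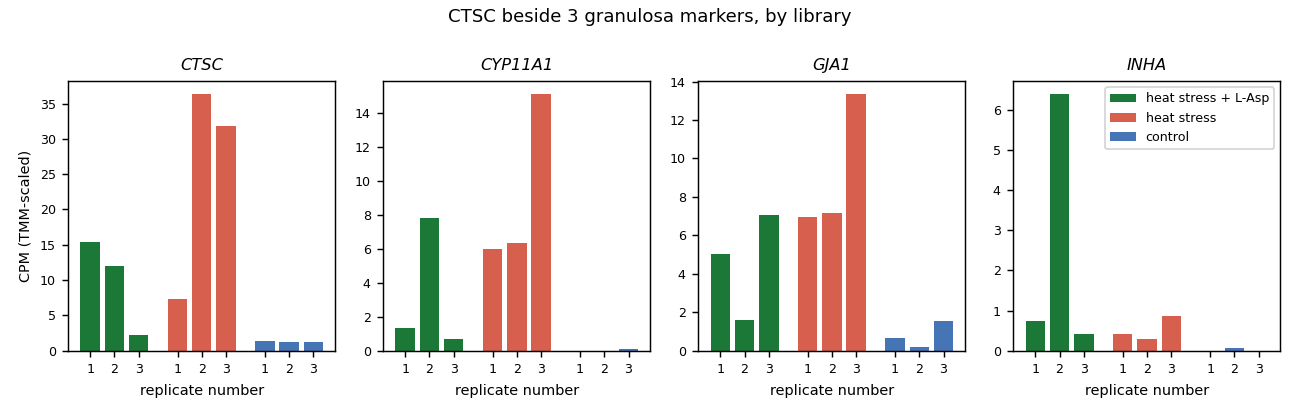
Bars give CPM, scaled by trimmed mean of M values, of CTSC and of 3 granulosa markers in each library. The 3 are part of the 18 tested, of which 4 had a log2 fold change below 0 for heat stress against control. The L-Asp, heat stress and control groups stand from left to right, with replicate numbers under the bars. CTSC is highest in heat stress replicate 2 at 36.4 CPM, CYP11A1 and GJA1 in heat stress replicate 3, and INHA in L-Asp replicate 2.

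CTSK, the most abundant cathepsin, measured 55.2, 76.3 and 49.8 CPM with L-Asp, 32.2, 21.8 and 67.4 CPM after heat stress and 47.5, 45.1 and 49.5 CPM in control. Heat stress replicate 3 lay within the L-Asp range and the other 2 heat stress libraries below control. The log2 fold change of CTSK was 0.58 ± 0.38 (SE) for L-Asp against heat stress and 0.35 ± 0.55 (SE) for L-Asp against control. Though all L-Asp libraries lay above control, the lowest of them (49.78 CPM) hardly differed from the highest control library (49.46 CPM). The neighbouring CTSS, a cathepsin of antigen-presenting cells, measured 6.73, 5.05 and 3.74 CPM with L-Asp, 13.3, 2.05 and 2.39 CPM after heat stress and 8.85, 8.68 and 10.9 CPM in control, so that heat stress replicate 1 alone exceeded control. CTSH, an aminopeptidase, measured 15.1 ± 6.37 CPM with L-Asp, 14.2 ± 6.75 CPM after heat stress (SD, n = 3 each) and 19.5 CPM in control. CTSV and CTSL encode similar proteases and can share reads. CTSV measured 8.86, 10.8 and 14.2 CPM with L-Asp, 17.7, 8.69 and 18.7 CPM after heat stress and 12.5, 11.9 and 11.5 CPM in control. CTSL measured 0.547, 0 and 0 CPM with L-Asp, 0, 2.28 and 4.47 CPM after heat stress and 0.952, 0.381 and 0.500 CPM in control, and 2 heat stress libraries thus held most of its counts. CTSB lay wholly below control after heat stress, at a log2 fold change of -1.64 ± 1.16 (SE) (edgeR, adjusted p = 1.0), with the overlap with FDFT1 given above. CTSF and CTSD ranged from 0.729 to 2.51 CPM and from 0 to 0.648 CPM over all libraries. CTSZ was listed at 0 in all 6 heated libraries and at 0.729, 0.248 and 0.250 CPM in control. By the level of 12 counts, its control mean gave bounds of 1.44-fold lower with L-Asp and 1.69-fold lower after heat stress. These bounds rest on control replicate 1. Control replicates 2 and 3 held 13 counts each, under the L-Asp level of 0.284 CPM and close to the heat stress level of 0.243 CPM. A difference from those control libraries therefore cannot be told at this depth. CTSA, a carboxypeptidase that also protects other lysosomal enzymes, lay at 0 to 0.443 CPM and CTSW at 0 to 0.272 CPM. Of the 10 tested cathepsins, 3 had a log2 fold change above 0 for heat stress against control, 5 for L-Asp against heat stress and 3 for L-Asp against control.

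Summed by role, the conjugation genes summed to 750.2, 739.6 and 737 CPM with L-Asp, 578, 610.4 and 756 CPM after heat stress and 685, 687 and 675 CPM in control. The initiation genes, with ULK3 and ULK4 counted among them, summed to 776, 702 and 812 CPM with L-Asp. Their sums were 829.7, 788 and 715 CPM after heat stress and 700.2, 717 and 710.3 CPM in control. LC3 and GABARAP genes summed to 472, 488 and 418 CPM with L-Asp, 448, 407 and 469.5 CPM after heat stress and 430.0, 416 and 444 CPM in control. In each of these 3 roles heat stress overlapped both of the other groups, and the L-Asp group lay wholly above control for the conjugation genes alone. All 45 members together took 0.245% to 0.261% of raw counts with L-Asp, 0.221% to 0.248% after heat stress and 0.200% to 0.203% in control. The mitochondrial shares given above also differed between libraries, and their part in these shares was not tested.

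Genes of the same pathway outside the naming rule were read from 6 lists. No gene of these lists passed edgeR's test in any comparison. Their counts above 0 stand beside 50.1% of all genes for heat stress against control, 49.0% for L-Asp against heat stress and 50.5% for L-Asp against control. Genes of the lysosomal membrane and acid hydrolases (46 tested) lay above 0 in 14 cases for heat stress against control (median log2 fold change -0.34), in 35 for L-Asp against heat stress (0.29) and in 28 for L-Asp against control (0.13). Subunits of the vacuolar proton pump, which acidifies the lysosome (15 tested), lay above 0 in 3 cases for heat stress against control (-0.37), in 9 for L-Asp against heat stress (0.31) and in 5 for L-Asp against control (-0.17). LAPTM4A, a protein of the lysosomal membrane, measured 293, 251 and 262 CPM with L-Asp, 218, 171 and 266 CPM after heat stress and 528, 529.8 and 536 CPM in control, with every heated library below control. Its adjusted p for heat stress against control was 0.437 (edgeR). CD63, a tetraspanin of late endosomes, lay the other way at 50.7, 56.6 and 44.7 CPM with L-Asp, 50.9, 76.3 and 87.3 CPM after heat stress and 30.5, 29.5 and 29.2 CPM in control. IDS, a sulfatase, averaged 97.0 ± 11.6 CPM with L-Asp, 62.5 ± 23.2 CPM after heat stress and 79.5 CPM in control. Of the pump, ATP6V1H measured 39.4, 47.9 and 46.0 CPM with L-Asp, 35.3, 37.6 and 33.8 CPM after heat stress and 80.2, 75.8 and 76.1 CPM in control, and ATP6V0B measured 183 ± 21.1 CPM with L-Asp, 125 ± 34.1 CPM after heat stress and 193 CPM in control. ATP6V1G1 lay the other way after heat stress and overlapped control with L-Asp, at 76.5, 60.3 and 38.7 CPM with L-Asp, 75.5, 116 and 81.2 CPM after heat stress and 43.5, 46.5 and 42.8 CPM in control, with a log2 fold change of 1.04 ± 0.44 (SE) for heat stress against control (edgeR, adjusted p = 1.0). The accessory subunit ATP6AP1 averaged 7.43 ± 1.60 CPM with L-Asp, 3.18 ± 0.888 CPM after heat stress and 8.06 CPM in control, and ATP6AP2 averaged 218 ± 36.4 CPM with L-Asp, 289.7 ± 17.7 CPM after heat stress and 374 CPM in control.

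Genes that control the pathway through mTORC1, AMPK and TFEB (34 tested) lay above 0 in 17 cases for heat stress against control (median log2 fold change 0.00), 16 for L-Asp against heat stress (-0.07) and 21 for L-Asp against control (0.05). RHEB, the GTPase that activates mTORC1, measured 149, 156 and 134 CPM with L-Asp, 144, 139.8 and 189 CPM after heat stress and 253, 249.7 and 281 CPM in control, and every heated library lay below control. FOXO3, a transcription factor with autophagy genes among its known targets, measured 40.7, 46.9 and 68.1 CPM with L-Asp, 27.2, 20.6 and 35.3 CPM after heat stress and 51.2, 49.8 and 48.8 CPM in control, with every heat stress library below both other groups. PRKAB2, a subunit of AMPK, measured 4.67 ± 1.13 CPM with L-Asp, 12.5 ± 3.83 CPM after heat stress (SD, n = 3 each) and 6.40 CPM in control. For FOXO3 and PRKAB2 the adjusted p of L-Asp against heat stress was 0.738 (edgeR).

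Genes for fusion with lysosomes (15 tested) lay above 0 in 12 cases for heat stress against control (median log2 fold change 0.35), 6 for L-Asp against heat stress (-0.51) and 8 for L-Asp against control (0.34). The SNARE protein YKT6 measured 3.97, 1.82 and 1.45 CPM with L-Asp, 10.3, 5.28 and 8.50 CPM after heat stress and 3.22, 4.96 and 3.98 CPM in control, with every L-Asp library below every heat stress library. STX7, another SNARE protein, averaged 30.7 ± 4.33 CPM with L-Asp, 31.5 ± 4.50 CPM after heat stress and 47.2 CPM in control, and the small GTPase RAB7A measured 144 ± 14.6 CPM with L-Asp, 137 ± 7.58 CPM after heat stress and 105 CPM in control. Cargo receptors other than SQSTM1 (22 tested) lay above 0 in 16, 12 and 14 cases, with medians of 0.24, 0.14 and 0.17, in the same order of comparisons. PHB2, a receptor for mitophagy that lies in the inner mitochondrial membrane, measured 114, 155 and 107 CPM with L-Asp, 77.9, 137 and 132 CPM after heat stress and 31.6, 28.2 and 27.1 CPM in control. Every heated library lay above control, at log2 fold changes of 2.12 ± 0.43 (SE) with L-Asp and 2.003 ± 0.42 (SE) after heat stress, which did not pass (edgeR, unadjusted p = 0.00042 and 0.000605, adjusted p = 0.797 and 0.424). TOLLIP, a receptor that also binds ubiquitin, measured 16.1, 34.5 and 48.7 CPM with L-Asp, 13.1, 25.7 and 16.6 CPM after heat stress and 14.8, 15.6 and 15.8 CPM in control. Further initiation factors (18 tested) lay above 0 in 10, 7 and 6 cases, with medians of 0.05, -0.05 and -0.13. TP53INP2, which binds LC3, averaged 17.0 ± 2.79 CPM with L-Asp, 17.9 ± 6.36 CPM after heat stress and 8.72 CPM in control, and RB1CC1, a scaffold of the ULK1 complex, averaged 120.0 ± 26.1 CPM with L-Asp, 161 ± 16.2 CPM after heat stress and 145 CPM in control. Medians and means differed in sign for the list of mTORC1, AMPK and TFEB in L-Asp against heat stress (median -0.07, mean 0.04).

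The genes whose log2 CPM followed ATG4A most closely over the 7 fitted libraries, among 6387 genes of at least 10 CPM on average, were PPP2CB (Pearson's r = 0.984), ZSWIM7 (0.967) and NFE2L3 (0.961). For SQSTM1 they were PI4KB (0.969) and 2 genes without a symbol, ENSSSCG00000044627 (0.972) and ENSSSCG00000032549 (0.971). These are the highest of 6387 values over 7 libraries, which share depth and scaling, and are given as a description.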

How the data were processed

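Whole-number counts and FPKM values per gene were deposited by the authors for 9 libraries of pig MII oocytes. Per the labels' protocols, cDNA was made from oligo(dT)-primed RNA with SMARTer chemistry, amplified, fragmented and sequenced in pairs. HISAT2 2.2.1, StringTie 2.1.6, cutadapt 1.9, edgeR and DESeq2 are named in the submitters' processing notes without roles, and no genome build is stated there. Another 6 per-sample columns of the table match no sample here and were not used. The FPKM values, scaled by the authors for gene length and depth, served only to compare levels between genes.

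The 3 control libraries were averaged to 1 (rounded) library. Genes were kept by edgeR's filterByExpr on the 9 libraries, scaled by TMM and tested with edgeR 4.0.16 (R 4.3.3, limma 3.58.1) by the robust quasi-likelihood F test on 7 libraries, with 1 mean per group and Benjamini-Hochberg adjustment over all 15012 genes. A call is an adjusted p under 0.05. The scripts were tested on simulated data with known changes. CPM values are depth-scaled counts with TMM factors, and the control libraries share the factor of their average. Counts come in steps near 4, so 12 counts (0.233 to 0.284 CPM) were taken as the smallest level that can be told from 0, and such limits cover counting error only. DESeq2 1.42.0 and other settings are alternatives.

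Genes named in the text are all members and, of each further pathway list, the gene of smallest unadjusted p in each comparison with some of the next 2. Single marker genes (BTG4, ZP3, ZP4, OOEP, INHA and PTPRC among them) were chosen after their values were seen. Members, lists and tests were chosen with earlier results of these data known.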

Additional observations from a re-analysis of the deposited data

How the results depend on the processing

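For heat stress against control, edgeR with its filter on low counts called no gene with the control averaged. It called 433 genes (264 higher, 169 lower) with the control libraries as 3 replicates. With the control averaged as before, DESeq2 called 172 (138 higher, 34 lower) and edgeR without a filter on low counts 9. CTSC was the 1 member called by the first 2 of these. For L-Asp against heat stress the counts were 2 with the controls as 3 replicates, 183 with DESeq2 (78 higher, 105 lower), 2 without the filter and 2 with the filter set on the 7 fitted libraries, and no member was called in any of these. For L-Asp against control they were 269 (174 higher, 95 lower) with the controls as 3 replicates, 64 with DESeq2 (43 higher, 21 lower), 3 without the filter and 1 with only these groups fitted, and WIPI2 was the 1 member called in the first. Leaving out 1 library at a time gave 0 to 1, 0 to 3 and 0 to 1 genes called and no member, with members' medians of -0.14 to -0.022, 0.025 to 0.16 and -0.15 to -0.0039. The median nearest 0 for heat stress against control came without heat stress replicate 1. The 18 fold changes of single members followed here were among those of smallest unadjusted p with the control averaged, without genes at 0 in a whole group. That choice favours a steady direction, and so do settings that drop a library outside the comparison. Of 294 alternative values for these fold changes, 289 kept direction and call, 5 passed the threshold (3 of CTSC, 2 of WIPI2) and 0 reversed. The cause of these changes was not tested. Replicate numbers were shared by label. Deviations of same-numbered heat stress and L-Asp libraries correlated at 0.458, -0.155 and 0.13, and not every library correlated best with its own number. With 3 libraries a group, such correlations cannot decide whether the numbers pair the libraries. With a replicate block on all 9 libraries, 378 genes were called for heat stress against control (CTSC the 1 member), 223 for L-Asp against control (WIPI2 the 1 member) and 0 for L-Asp against heat stress, as with a block on the 6 heated libraries.
MAP1LC3C, CTSA, CTSW, CTSZ, ATG2A, ATG16L2 and WIPI1 lay under 12 counts in most libraries, where all but large differences are below what this depth can show. With 3 libraries a group and 1 averaged control, 4 residual degrees of freedom limit every test.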
